A study of Sus scrofa with 8 samples.

Results

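The comparison described here sets left ventricular muscle of pigs given low-dose glial growth factor 2 (GGF2) against that of untreated pigs, across all genes on the array. It takes in the 3 arrays labelled low dose and the 3 labelled untreated, 6 of the 8 arrays in the series, and every probe set that is not an array control, 23999 of 24123. The arrays were chosen by their labels and all non-control probe sets were kept, though earlier results of these data were known. All animals were castrated male Yorkshire swine under 1 year of age, with a mean weight of 54.5 kg, and all had had a myocardial infarction, the untreated ones included. Each infusion of the low dose held 0.67 mg/kg of GGF2, the course ran for 4 weeks, and the tissue came from the left ventricle away from the infarct. The 2 remaining animals, given 2.0 mg/kg for the same time, entered the estimate of the spread and the fits with a covariate. Their values are given beside some of the genes. Each array holds 1 animal, no group without an infarct was compared, and the labels do not say whether the untreated animals received a sham infusion.

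GGF2 is a soluble form of neuregulin-1, a growth factor that endothelial cells of the heart release onto neighbouring muscle cells. It binds ERBB4 and ERBB3, which pair with ERBB2 and pass the signal on through the PI3K and AKT pathway and through RAS and the MAP kinases. In cardiac muscle this signalling is known for its part in growth, survival, sarcomere upkeep and the response to stress, and ERBB receptors also act in endothelial cells, fibroblasts, nerve and epithelium. All values below are log2 values from RMA, on which a difference of 1 is a 2-fold difference. Levels of different genes are not compared, since each probe set has its own brightness.

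No probe set passed. The share called at a limma adjusted p under 0.05 was 0 percent (0 of 23999). The smallest limma adjusted p was 0.795, for keratin 8, and the second smallest was 0.998. At an unadjusted limma p under 0.05, 664 probe sets were higher at the low dose, 2.77 percent of all, and 417 were lower, 1.74 percent; the sum of 1081 compares with 1200 expected if nothing differed. That balance moved with the scaling, to 538 higher and 556 lower after each array was centred on its median and to 604 and 549 after a renewed quantile normalization. The median difference over all probe sets was 0.01, with quartiles of -0.10 and 0.11. The 95% interval of a single probe set reached a median of 0.32 to each side, so a difference of that size or less could not be told from 0 for a typical gene. The genes below are therefore described by their values, and "higher" and "lower" are statements about these 6 animals.

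Groups without overlap, where every low-dose animal lay on one side of every untreated animal, were found for 1254 probe sets on the higher side (5.23 percent) and 929 on the lower side (3.87 percent). With a difference of at least 1.5-fold as well, 105 were higher (0.438 percent) and 58 lower (0.242 percent). These belonged to 27 named genes on the higher side and 31 on the lower side. Of the 105 higher probe sets, 28 carried a gene symbol, so most of what was largest on that side has no name here. Without untreated animal 2 and low-dose animal 1, whose tag numbers are neighbours in the labels, 1 unnamed probe set passed (-3.02, limma adjusted p = 0.00315). With all animals it measured 7.55, 4.31 and 7.38 in the untreated group and 5.41, 4.47 and 4.42 at the low dose, so the untreated animal left out was the lowest of all.

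RNA quality was not fully matched. The gap between the 3' and 5' probe sets of beta-actin, which widens when RNA is broken, was 5.02, 4.88 and 5.26 in the untreated animals and 6.04, 5.70 and 5.48 at the low dose. Those groups did not overlap (exact permutation test, two-sided, p = 0.1, the smallest that 3 against 3 animals can give). A second actin pair did overlap, as did both GAPDH pairs and EEF1A (exact p = 0.5 to 0.8). The fit with the non-overlapping beta-actin gap as a covariate is given beside the groups of genes that it moves. Since that gap separated the low-dose from the untreated animals, this fit cannot tell its part from that of the treatment. Correlations across probe sets were 0.983 to 0.992 between arrays of different groups, 0.985 to 0.987 among low-dose arrays and 0.986 to 0.994 among untreated arrays.

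Keratin 8 (KRT8), a filament protein of simple epithelia and of the mesothelium that covers the heart, showed the largest difference of any named gene. It measured 5.89, 5.66 and 5.36 in the untreated animals and 8.37, 7.39 and 7.80 at the low dose. Every low-dose animal was thus above every untreated one by a wide gap. The difference was 2.21 ± 0.28 (SE; 95% interval 1.58 to 2.85; limma adjusted p = 0.795), or 4.64-fold, and 1.67 with the actin gap as a covariate. In the 2 animals given the higher dose it was 6.58 and 5.84, between the groups in 1 animal and within the untreated range in the other. A dimmer KRT8 probe set, close to background, differed by -0.02.

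Other genes of simple epithelium differed far less than KRT8. KRT18, the usual partner of KRT8 in filaments, measured 4.41, 4.31 and 4.41 in untreated animals and 4.32, 4.48 and 4.87 at the low dose, with overlap. KRT19 measured 3.82, 3.47 and 3.37 against 3.96, 4.05 and 4.00, a difference of 0.45 ± 0.16 without overlap, from a level at the lower quartile of all values (3.77), which is taken as close to background. OVOL1, a transcription factor of epithelia, measured 4.65, 4.86 and 4.43 against 5.80, 5.30 and 5.46, a difference of 0.87 ± 0.22, with 0.08 on a dimmer probe set. Of 10 measured markers of epicardium and mesothelium, 5 were higher and 5 lower, with a median of -0.02 (-0.04 to 0.05 with any 1 animal left out) against -0.01 over all 6765 named genes. The mean level of that list ran from 5.60 to 5.68 in untreated animals and from 5.84 to 5.91 at the low dose. Those means take in KRT8, at 2.21, and the mean difference over the 10 genes was 0.23 where the median was -0.02. With the actin gap as a covariate 8 of 10 were higher, with a median of 0.19. Without KRT8, KRT18, KRT19 and TCF21, whose values were known when the list was written, 1 of 6 was higher, with a median of -0.14. WT1, a transcription factor of the epicardium, was at -0.11 ± 0.14 (0.29 with the actin gap), while UPK1B and CALB2, made by mesothelial cells, were close to background in both groups. Of the epithelial markers, 6 of 11 were higher (median 0.03), EPCAM was close to background and CDH1, the cadherin of epithelia, was at -0.34 ± 0.37. Fewer cells of a type and less RNA in each cell cannot be told apart in these tissue samples.

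**Figure D1:**
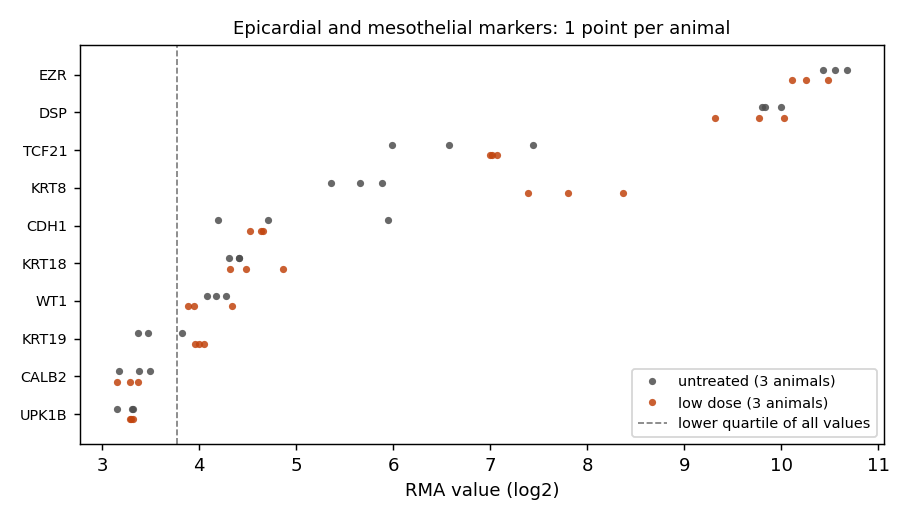
Log2 RMA values of the 10 measured epicardial and mesothelial markers (x axis) by gene (rows), with 1 point for each of the 3 untreated and 3 low-dose animals and a dashed line at the lower quartile of all values. KRT8 stands out, with groups at 5.36 to 5.89 and 7.39 to 8.37, while KRT18, WT1 and TCF21 overlap.

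The further genes that the naming rule chose on the higher side have varied roles. ACSS3, a mitochondrial enzyme that activates short-chain fatty acids, measured 4.46, 4.20 and 4.55 in untreated animals and 5.74, 5.12 and 5.74 at the low dose. Its difference of 1.13 ± 0.21 came next to KRT8 among named genes that were higher without overlap, yet its brighter probe sets differed by 0.16 and 0.27. GMPR2, an enzyme on the route from guanine to adenine nucleotides, measured 7.02, 7.25 and 7.25 against 8.18, 7.81 and 8.13 (0.87 ± 0.20), with 0.16 on its other probe set. ATP1B4, a muscle protein related to the sodium pump's beta subunits, measured 3.51, 3.64 and 3.58 against 4.45, 4.11 and 4.12 (0.65 ± 0.12), and its untreated values were at the level of background. The adaptor SKAP2, a partner of SRC-family kinases, measured 3.47, 4.00 and 3.68 against 5.11, 4.02 and 5.11 on the dimmest of its probe sets, with a mean at the level of background in untreated animals. The groups there were barely apart, and the difference of 1.03 has no exact size. On the brighter sets the differences were 1.04 and 1.23, with overlap. DDR1, a receptor for collagen, measured 8.05, 7.67 and 7.51 in untreated animals and 8.57, 8.26 and 8.30 at the low dose (0.63 ± 0.16). DLG3, a scaffold of cell junctions and synapses, was at 0.74 ± 0.17.

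For several genes the result rests on 1 probe set among others that differ little. EIF4H, a helper of the translation helicase, was at 0.97 ± 0.24 on a dim probe set and at -0.21 on the bright one. RANBP3, a cofactor of nuclear export, was at 0.73 ± 0.20, with -0.06 to 0.03 on 5 others. SF1, which binds the branch point of introns, was at 0.99 ± 0.28, with 0.08 and 0.11 on sets close to background. DNAJA1, a partner of HSP70, was at 0.61 ± 0.14, with 0.25 on its bright probe set. These genes thus have no single value for the change of their RNA.

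On the lower side, iron regulatory protein IREB2 had the smallest unadjusted p of the named genes. It measured 6.29, 6.15 and 6.28 in untreated animals and 5.67, 5.32 and 5.60 at the low dose, a difference of -0.71 ± 0.12 (limma adjusted p = 0.998). The untreated values lay close together and well above every low-dose one. NREP, a protein made by fibroblasts and regenerating tissue, measured 12.05, 11.85 and 12.33 against 11.41, 10.93 and 11.43 (-0.82 ± 0.17). PKIB, an inhibitor of protein kinase A, measured 7.27, 7.86 and 6.79 against 6.04, 6.57 and 5.81 (-1.17 ± 0.28). RASL11B, a small GTPase related to RAS, measured 7.05, 6.03 and 7.24 against 5.22, 5.17 and 5.88 (-1.35 ± 0.37). In these 3 genes the groups stood apart, with the untreated animals of RASL11B more scattered than those at the low dose.

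Of other genes that the rule chose on the lower side, TMEM98, a membrane protein, was at -0.70 ± 0.18 and CYB5B, a cytochrome of the outer mitochondrial membrane, at -0.68 ± 0.18. UBXN6, a cofactor of the VCP unfoldase, was at -0.60 ± 0.16, and the actin regulator SSH1, a phosphatase of cofilin, at -0.69 ± 0.21. EFCAB11, a protein with a calcium-binding motif, was at -0.72 ± 0.22 with -0.58 on its brighter probe set. MARCH6, a ubiquitin ligase of the endoplasmic reticulum, was at -0.68 ± 0.17 on a dim probe set and at 0.15, -0.20 and 0.07 on brighter ones.

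**Figure D2:**
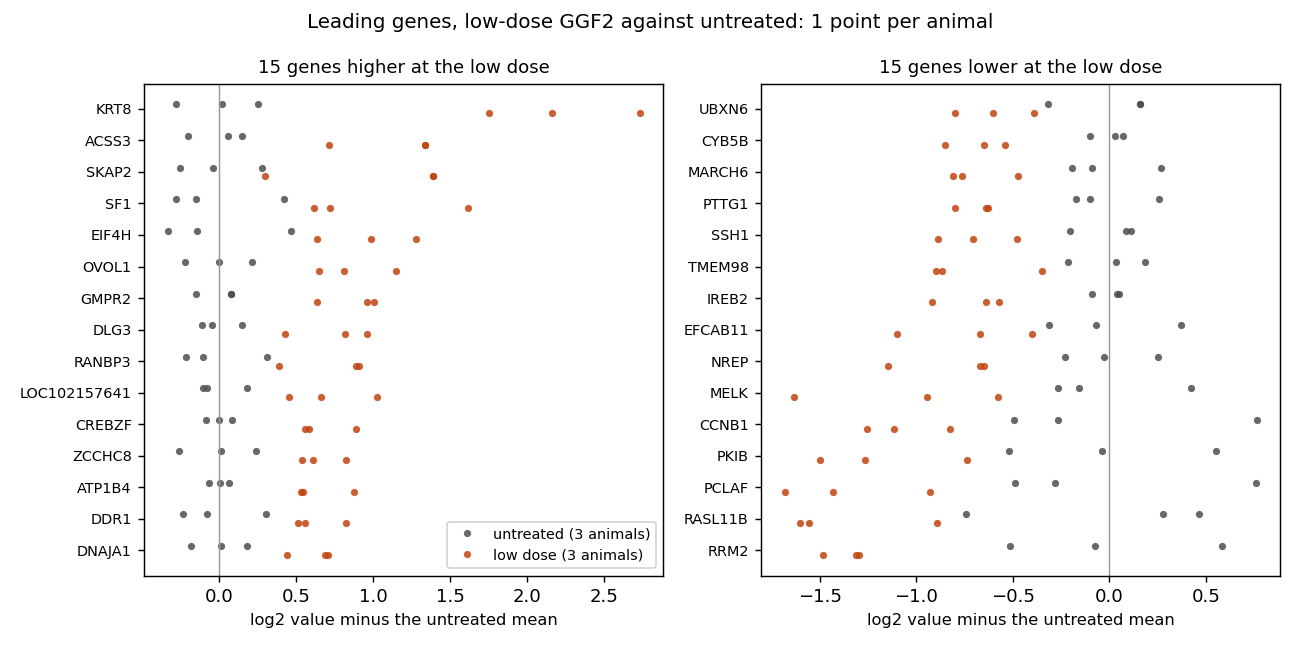
Log2 value minus the mean of the untreated animals (x axis) for the 15 genes on each side chosen by the naming rule (rows), with 1 point for each of 3 untreated and 3 low-dose animals. No gene's groups overlap, because the rule asked for that; KRT8 lies farthest to the right, with a mean difference of 2.21, and RRM2 farthest to the left, at -1.36.

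Genes of dividing cells were lower at the low dose as a group, and were the only lists of 55 with a median below -0.1. Of 23 measured genes of DNA replication, 22 were lower, with a median of -0.21, and of 28 genes of mitosis and cytokinesis 26 were lower, with a median of -0.34. The median over all named genes was -0.01, with 3498 of 6765 lower. None of the 51 passed; 17 had an unadjusted limma p under 0.05 on the lower side and 0 on the higher side, and 20 had groups without overlap, all lower. Over all named genes 1.91 percent had such a p on the lower side and 4.14 percent were lower without overlap. That the leading genes were low was known from earlier work on these arrays when the lists were written. Without the 9 genes so known, 39 of 42 were lower, with a median of -0.21.

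RRM2, the small subunit of the enzyme that makes deoxynucleotides, measured 6.05, 5.39 and 4.95 in untreated animals and 3.98, 4.15 and 4.17 at the low dose (-1.36 ± 0.24). PCLAF, which binds the replication clamp, measured 8.01, 6.97 and 6.76 against 5.82, 6.32 and 5.57 (-1.35 ± 0.34). In both genes the low-dose animals lay below all untreated ones, and untreated animal 1 was the highest of all. Smaller differences of the same direction were found for the clamp loader subunit RFC3 (7.12, 7.11 and 7.07 against 6.50, 6.76 and 6.81, or -0.41 ± 0.12) and the flap nuclease FEN1 (6.78, 6.75 and 6.97 against 6.44, 6.55 and 6.53, or -0.33 ± 0.10). The kinase CDK2 was at -0.58, with the groups meeting at 6.00 and a value of 0.17 with the actin gap as a covariate, and the helicase subunit MCM2 at -0.26 without overlap. Thymidylate synthase TYMS was at -0.27, at the level of background. The helicase subunits MCM3 and MCM5 (-0.08 and -0.07) and DNA ligase LIG1 (-0.04) overlapped. RRM1, the large subunit of the same reductase, was the 1 gene of the list that was higher, at 0.04, and was at -0.37 with the actin gap as a covariate.

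In mitosis, securin (PTTG1), which keeps sister chromatids from parting before anaphase, measured 6.73, 6.37 and 6.30 in untreated animals and 5.84, 5.67 and 5.83 at the low dose (-0.69 ± 0.13). Cyclin B1 (CCNB1), which drives entry into mitosis, measured 6.96, 5.93 and 5.70 against 5.08, 5.37 and 4.94 (-1.07 ± 0.30). Topoisomerase TOP2A measured 7.94, 7.16 and 7.07 against 6.26, 7.01 and 5.71 (-1.06 ± 0.33). The groups were apart in all 3, though only just so in TOP2A. NUSAP1 and UBE2C, a spindle protein and a ubiquitin carrier of mitosis, were at -0.90 and -0.73 without overlap, and the kinase MELK, outside the list, at -1.05 ± 0.29. HMMR, a spindle protein, and AURKA, a spindle kinase, were at -0.44 and -0.30 near background. The regulator FOXM1, the kinase AURKB and the checkpoint protein BUB3 differed by -0.04, -0.02 and 0.03, so not every gene of the list was lower by a like amount.

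The size of the mitosis median rested partly on untreated animal 1, whose mean over the centred list was 0.50, against 0.03 and 0.06 in the other untreated animals and -0.21, -0.07 and -0.31 at the low dose. Without that animal the median was -0.21, 24 of 28 were lower and 5 had an unadjusted p under 0.05, in place of 10, and without low-dose animal 3 there were 4. Over both lists 9 of 51 genes were lower with such a p without untreated animal 1, and 11 without low-dose animal 3, where 1 was higher. Of all 6765 named genes 87 were lower with such a p without untreated animal 1. Without low-dose animal 3 228 were lower and 155 higher. With the actin gap as a covariate 42 of the 51 cell cycle genes were lower, with a median of -0.24. In that fit 2 were lower with an unadjusted limma p under 0.05, where 117 of 6765 named genes were. In 15 of the 51 genes both animals at the higher dose lay below all 6 others, 29.4 percent against 6.47 percent of all named genes. PTTG1 was one of them, at 5.15 and 5.23. In 4 of the 51 both lay above every low-dose animal, 7.84 percent against 14.9 percent, and RFC3 was one of these. Lymphocyte markers were lower in 12 of 19 genes (median -0.04), with mean levels of 4.60 to 4.64 in untreated animals and 4.53 to 4.62 at the low dose. Macrophage and monocyte markers were lower in 8 of 19 genes (median 0.01), with mean levels of 5.77 to 6.08 and 5.64 to 6.04. Without overlap 2 lymphocyte and 1 macrophage markers were lower and 0 of either list higher. Over all named genes 4.14 percent were lower and 4.39 percent higher without overlap.

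**Figure D3:**
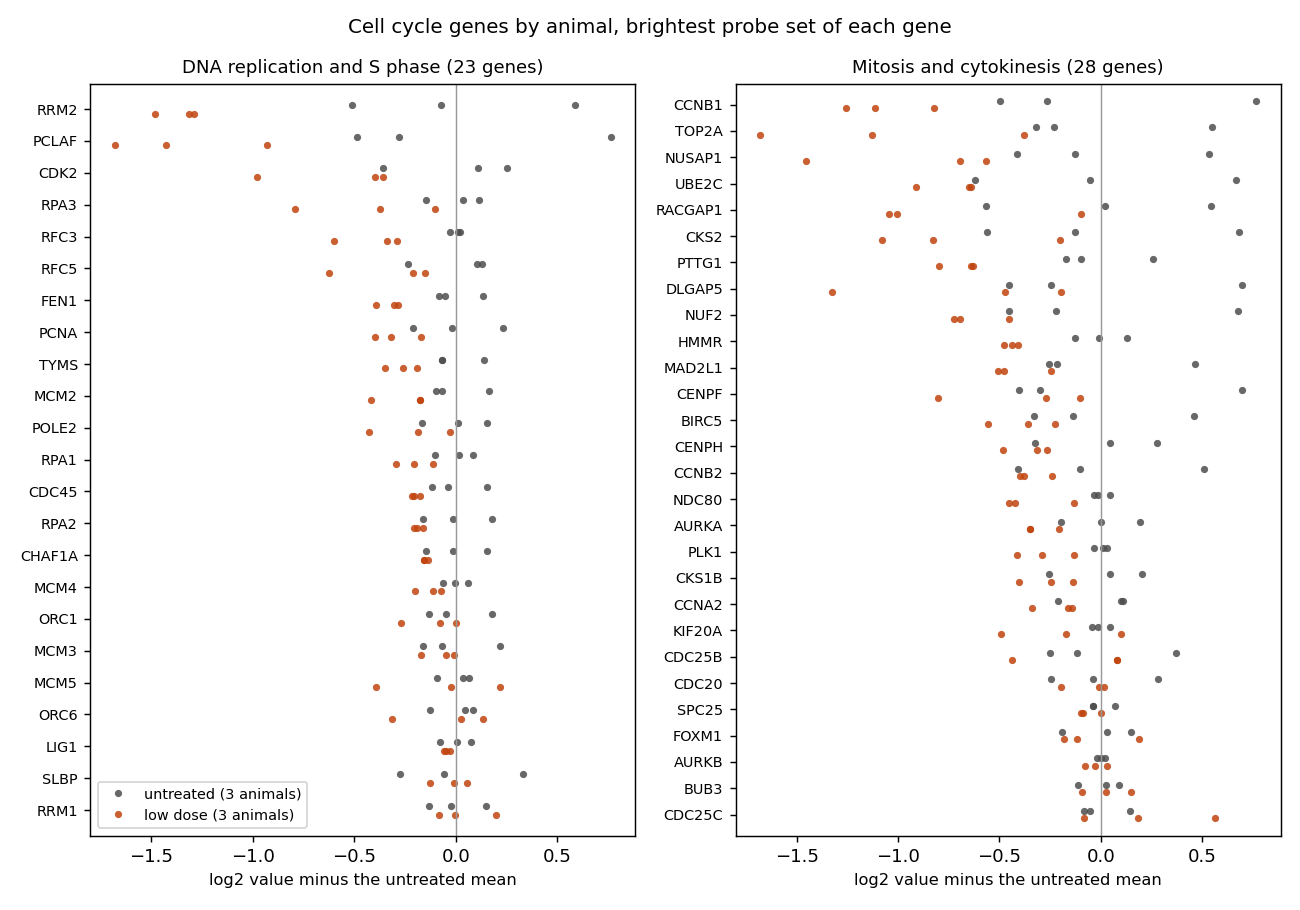
Log2 value minus the mean of the untreated animals (x axis) for 23 genes of DNA replication and 28 of mitosis (rows), with 1 point for each of 3 untreated and 3 low-dose animals. Low-dose points lie to the left for most genes, 22 of 23 and 26 of 28 by their means, and untreated points spread widely for CCNB1, PCLAF and RRM2.

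Genes of RNA splicing and processing were mostly higher at the low dose. Of 49 measured, 36 were higher, with a median of 0.14; 7 had an unadjusted limma p under 0.05, all higher, and 9 were higher and 1 lower without overlap. Over all named genes 1.97 percent had such a p on the higher side and 4.39 percent were higher without overlap. RBM39, a splicing coactivator, measured 9.74, 10.08 and 9.90 in untreated animals and 10.34, 10.34 and 10.36 at the low dose (0.44 ± 0.11), and its second probe set gave 0.39 without overlap. RBM5, a regulator of exon choice, measured 7.46, 7.83 and 7.52 against 8.16, 8.14 and 7.84 (0.44 ± 0.16), with -0.16 and 0.35 on dimmer sets. The kinase CLK1, which phosphorylates splicing factors, was at 0.51 ± 0.18 with overlap. In RBM39 the low-dose animals were almost level with each other, above all untreated ones.

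CREBZF and ZCCHC8 were put in that list with their values known. CREBZF, a transcription factor, measured 8.22, 8.05 and 8.13 against 9.02, 8.72 and 8.69 (0.68 ± 0.14), with 7.79 and 7.38 in the animals at the higher dose, below every other animal; its other probe sets gave 0.15 to 0.36. ZCCHC8, part of a nuclear RNA decay complex, was at 0.66 ± 0.15 and, on a brighter probe set, at 0.60, each without overlap. Without these genes 34 of 47 were higher, with a median of 0.12. The median was 0.08 without low-dose animal 1. Between 1 and 8 genes had an unadjusted limma p under 0.05 on the higher side when any 1 of the 6 animals was left out. The fewest came without untreated animal 3, where 87 of 6765 named genes had such a p. The most came without untreated animal 2, where 207 had. After median centring 31 of 49 were higher, 5 of them without overlap, where 2849 and 217 of 6765 named genes were. With the actin gap as a covariate 28 of 49 were higher and the median was 0.05. In that fit 2 had such a p on the higher side, where 160 of 6765 named genes had.

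Protein folding genes of the endoplasmic reticulum were higher in 14 of 17, with a median of 0.10 and 4 without overlap, where 4.39 percent of all named genes were higher without overlap; 0 had an unadjusted limma p under 0.05, against 1.97 percent of named genes on the higher side, and 0 passed. The chaperone HSPA5 measured 11.68, 11.68 and 11.79 in untreated animals and 12.11, 11.87 and 12.10 at the low dose (0.31 ± 0.15). Its cochaperone DNAJB11 was at 0.24 ± 0.11 and HYOU1, a large chaperone of the same compartment, at 0.27 ± 0.12. All 3 were without overlap, by narrow margins. HSPA5 was known when the list was written, and without it 13 of 16 were higher, with a median of 0.09. The list's median was 0.06 without low-dose animal 1, 0.17 without low-dose animal 3 and 0.15 without untreated animal 2. With the actin gap as a covariate it was 0.19. Cytosolic heat shock genes were divided, 22 of 40 higher with a median of 0.02. Within them HSP70.2, an inducible HSP70, measured 10.14, 11.08 and 10.62 against 10.98, 11.13 and 11.46 (0.58 ± 0.23), with 0.53 and 0.49 on its other sets. DNAJB1, an HSP40 that works with it, measured 6.62, 7.79 and 6.32 against 7.82, 7.10 and 8.65, and its groups overlapped.

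By counts of genes, translation and protein breakdown leaned slightly the other way, where 51.7 percent of all named genes were lower. Of 47 translation factors and transfer RNA synthetases 30 were lower (median -0.04), 5 of them without overlap, where 4.14 percent of all named genes were lower without overlap. The initiation subunit EIF3M was at -0.32 ± 0.13. Cytosolic ribosomal proteins were lower in 38 of 59 (median -0.03) and genes of the proteasome and ubiquitin pathway in 35 of 52 (median -0.04). Centred means of the ribosomal proteins were 0.041, -0.005 and -0.017 in untreated animals and -0.106, 0.035 and 0.052 at the low dose. In the proteasome list they were 0.068, 0.028 and -0.004 in untreated animals and -0.114, -0.044 and 0.065 at the low dose. Low-dose animal 1 was the lowest in both lists. FBXO32, the atrophy ubiquitin ligase also called atrogin-1, measured 11.13, 10.84 and 10.86 in untreated animals and 9.27, 10.69 and 10.05 at the low dose (-0.94 ± 0.31), with -1.18 on its dimmer probe set. Low-dose animal 1 carried the largest part of that difference. The proteasome ATPase PSMC2 was at -0.31 ± 0.11 on its bright set and at -0.02 and -0.01 on the others. TRIM55, a ubiquitin ligase of the sarcomere, was at 0.54 ± 0.22 with overlap. Autophagy and lysosome genes were lower in 18 of 32.

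**Figure D4:**
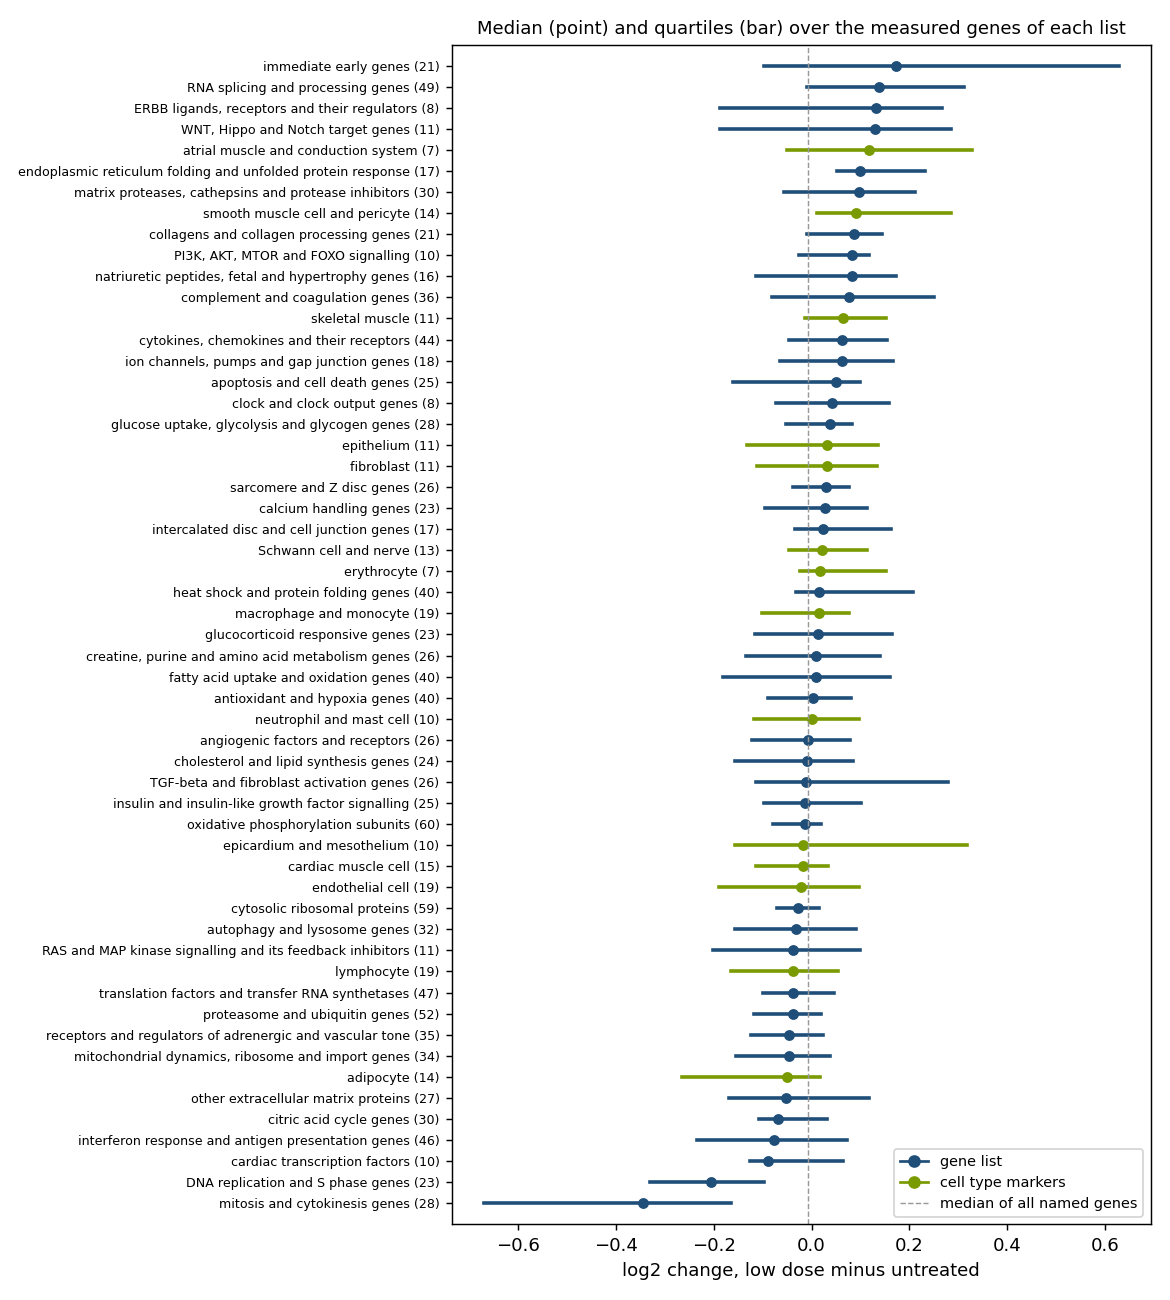
Median (point) and quartiles (bar) of the log2 change, low dose minus untreated (x axis), over the measured genes of each of 55 lists (rows, with the number of genes in parentheses). The mitosis and DNA replication lists stand apart at the low end, at -0.34 and -0.21, and 48 of the 55 medians lie between -0.1 and 0.1.

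The ERBB pathway, through which GGF2 acts, was only in part on the array. NRG1, ERBB2, ERBB3 and ERBB4 had no probe set with a symbol of their own and are not analysed here. Of 8 measured ligands, receptors and regulators, 5 were higher, with a median of 0.13. The EGF-receptor ligand TGFA measured 4.87, 4.75 and 5.06 in untreated animals and 4.70, 4.46 and 4.61 at the low dose (-0.30 ± 0.12), with the groups barely apart. ADAM17, the protease that sheds such ligands, measured 5.05, 5.12 and 5.10 against 5.17, 5.62 and 5.62 (0.38 ± 0.16), with -0.07 on the next brightest set. Amphiregulin (AREG), another ligand, spanned 2.91 to 5.44 in untreated animals and 3.49 to 6.39 at the low dose.

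Downstream, PI3K, AKT and MTOR genes were higher in 6 of 10 (median 0.08), with AKT1 at 0.17 ± 0.13. RAS and MAP kinase genes were higher in 4 of 11 (median -0.04), with the feedback phosphatase DUSP6 at 0.28 ± 0.15. None of these 21 genes had an unadjusted limma p under 0.05, which 1.97 percent of all named genes had on the higher side and 1.91 percent on the lower, so a count of 0 says little. In the insulin pathway GRB10, an adaptor that damps receptor tyrosine kinases, measured 8.31, 8.48 and 8.52 in untreated animals and 7.99, 8.05 and 8.07 at the low dose. Its difference was -0.40 ± 0.10 on the brighter probe set and -0.40 on the dimmer, and the groups of the brighter one were apart. IGFBP1, which binds insulin-like growth factors, was at 0.26 ± 0.11 without overlap, and 11 of 25 genes of the list were higher.

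Immediate early genes, transcribed within minutes of a stimulus, split the animals in a way that crossed the groups. The transcription factor EGR1 measured 10.05, 12.70 and 10.17 in untreated animals and 12.60, 11.17 and 12.33 at the low dose, and the nuclear receptor NR4A3 measured 10.06, 12.30 and 8.62 against 12.34, 10.49 and 11.55. Untreated animal 2 was thus as high as the highest low-dose animals, and low-dose animal 2 was lower than the others of its group. The mean over 21 centred genes was -0.61, 0.82 and -0.56 in untreated animals and 0.83, -0.78 and 0.30 at the low dose. In number 14 of 21 were higher, with a median of 0.17, and 0 had an unadjusted limma p under 0.05. Untreated animal 2 and low-dose animal 1, both high, have neighbouring tag numbers, as do untreated animals 1 and 3 and both high-dose animals. The arrays of untreated animal 2 and low-dose animal 1 correlated at 0.9892. That was above the correlation of each with any other array of its own group (at most 0.987). Untreated animal 2 and low-dose animal 2, not tag neighbours, correlated at 0.9887. Untreated animals 1 and 3 correlated at 0.9936, and untreated animal 1 and low-dose animal 2 at 0.9922. A term for untreated animal 2 and low-dose animal 1 gave 2 of the 21 higher and 1 lower at such a p. Over all 6765 named genes it gave 187 higher and 189 lower. Without these animals 5 of the 21 were higher and 2 lower at such a p, where 179 and 148 of 6765 named genes were. In that setting 7 were higher and 2 lower without overlap, where 1053 and 1081 of 6765 named genes were. The median of the list was then 0.45. The part of the tag numbers in this was not tested. Without the 5 genes known when the list was written, 11 of 16 were higher, with a median of 0.16. Leaving out untreated animal 2 gave a median of 0.59, leaving out low-dose animal 2 gave 0.62 and leaving out low-dose animal 1 gave 0.03. With the actin gap as a covariate it was 0.43.

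Interferon response and antigen presentation genes also divided by animal, with centred means of -0.16, 0.31 and -0.02 in untreated animals and -0.22, 0.38 and -0.30 at the low dose. Of these 29 of 46 were lower (median -0.08). The class II gene SLA-DRA measured 8.03, 8.69 and 7.93 against 7.74, 8.42 and 7.08, highest in animal 2 of each group. The immunoproteasome subunit PSMB10 measured 7.45, 7.73 and 7.80 against 8.04, 7.84 and 7.93, with the groups barely apart. Cytokines and chemokines were higher in 28 of 44 (median 0.06). Clock genes gave 5 of 8 higher, with the repressor CRY2 at 7.96, 7.77 and 7.89 against 8.38, 8.14 and 8.13 (0.35 ± 0.12) and PER1 at 0.40 ± 0.16 with overlap and at -0.36 on a dimmer set.

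**Figure D5:**
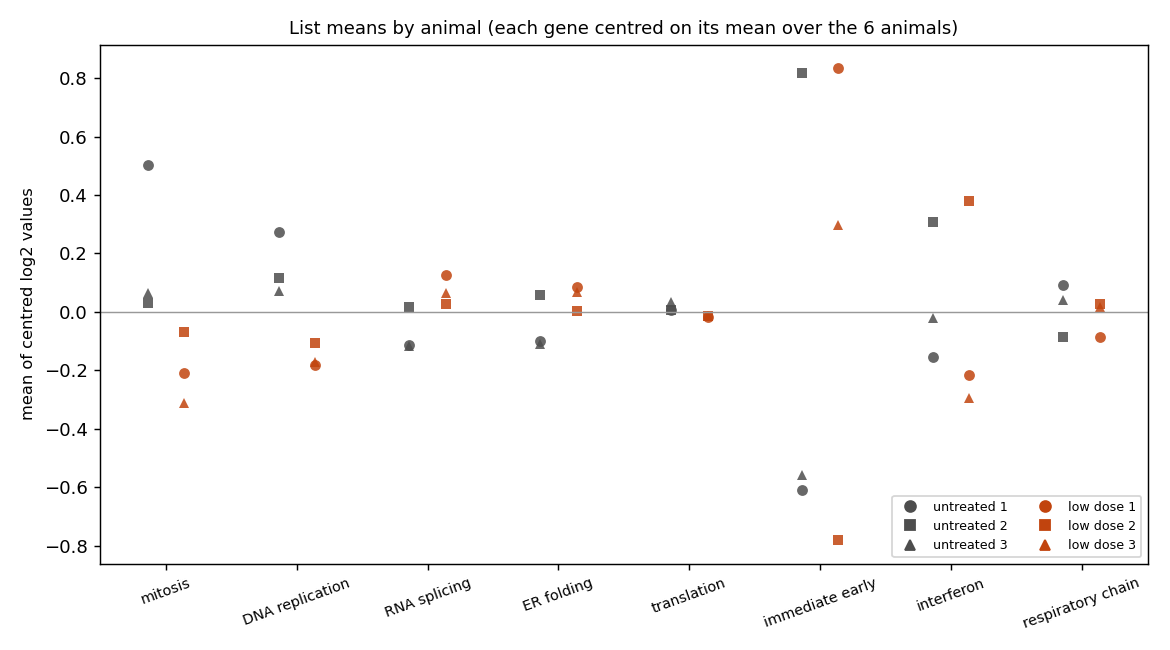
Mean of the log2 values of each list's genes, each gene centred on its mean over the 6 animals (y axis), for 8 lists (x axis), by animal (colour for group, shape for animal number, which pairs nothing across groups). Mitosis and DNA replication means lie lower in every low-dose animal, whereas immediate early means run from -0.61 to 0.82 in untreated and from -0.78 to 0.83 in low-dose animals.

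Genes of wall stress and contraction went in both directions. Atrial natriuretic peptide (NPPA), released by stretched muscle, measured 8.45, 8.59 and 8.45 in untreated animals and 8.05, 7.44 and 8.28 at the low dose. The groups did not overlap, but the difference of -0.57 ± 0.46 was close to its error. The animals at the higher dose, at 8.21 and 6.09, enter that error. The related peptide NPPB measured 9.09, 8.77 and 8.41 against 9.77, 7.32 and 8.56 (-0.21 ± 0.53), with the highest and the lowest animal both at the low dose. Myosin MYH7 was at 0.06 ± 0.10 (-0.071 with the actin gap), near the top of the scale at 14.77 to 14.94, and the calcium pump ATP2A2 at 0.07 ± 0.10, with 0.21 to 0.31 on 3 dimmer sets. Sarcolipin (SLN), an inhibitor of that pump found mainly in atria, measured 4.80, 4.56 and 5.35 against 5.79, 5.26 and 7.25 (1.20 ± 0.45), with overlap. S100A1, a calcium sensor that aids the pump, measured 9.71, 9.12 and 9.72 against 8.72, 9.07 and 8.98 (-0.59 ± 0.20), with the groups just apart. The list of natriuretic peptides, fetal and hypertrophy genes had 10 of 16 higher, with a median of 0.08.

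Lists of the contractile machinery were divided: 15 of 26 sarcomere and Z disc genes were higher (median 0.03), as were 13 of 23 calcium handling genes (median 0.03) and 11 of 18 ion channels, pumps and gap junction genes (median 0.06). Intercalated disc and junction genes were higher in 10 of 17 (median 0.02), and cardiac transcription factors in 4 of 10 (median -0.09). Of the markers of cardiac muscle 15 were measured, and TNNT2, TNNI3 and MYL2, proteins of the contractile filaments, lay at 13.66 or above in all 6 animals. That list had 6 of 15 higher and a median of -0.02, from levels so near the top of the scale that a modest difference could be lost.

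In energy metabolism 1 of 40 fatty acid genes, 0 of 30 genes of the citric acid cycle and 0 of 60 of the respiratory chain had an unadjusted limma p under 0.05. Over all named genes 1.97 percent had such a p on the higher side and 1.91 percent on the lower. Fatty acid uptake and oxidation genes were higher in 22 of 40 (median 0.01), 5 higher and 3 lower without overlap, where 4.39 and 4.14 percent of all named genes were. The mitochondrial deacetylase SIRT3 measured 7.97, 7.88 and 7.81 in untreated animals and 8.34, 8.31 and 8.12 at the low dose (0.37 ± 0.11), while the oxidation enzymes ECHS1 and ECI1 were each at -0.24 without overlap. Respiratory chain subunits were lower in 36 of 60 (median -0.01) and citric acid cycle genes in 19 of 30 (median -0.07), with the pyruvate dehydrogenase subunit PDHA1 at -0.25 ± 0.12. Mitochondrial dynamics, ribosome and import genes were lower in 23 of 34 (median -0.05). The ADP carrier SLC25A5 was an exception, at 0.65 ± 0.22 with overlap.

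In sugar metabolism 15 of 28 genes were higher (median 0.04). PGD, of the pentose phosphate pathway, measured 5.28, 5.58 and 5.48 against 6.51, 5.87 and 5.72 (0.58 ± 0.20), and the muscle glycogen phosphorylase PYGM was at 0.51 ± 0.19 with overlap and at 0.15 to 0.36 on its other sets. Purine phosphorylase PNP was at 0.43 ± 0.14 and the creatine enzyme GAMT at -0.51 ± 0.18, both without overlap, within a list with 14 of 26 higher. HSD17B7, of cholesterol synthesis, was at 0.41 ± 0.11 without overlap, while 13 of the 24 genes of lipid synthesis were lower. BPGM, which makes the regulator of haemoglobin's oxygen binding, measured 7.19, 6.98 and 7.16 against 7.77, 7.60 and 7.57 (0.54 ± 0.11). The globin HBB was at -0.11 ± 0.15 (0.25 with the actin gap) and 5 of 7 erythrocyte markers were higher (median 0.02), and BPGM was the 1 gene of that list without overlap.

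Matrix and fibroblast genes were divided. Collagens and their processing enzymes were higher in 15 of 21 (median 0.09) and other matrix proteins lower in 16 of 27 (median -0.05). Periostin (POSTN), made by activated fibroblasts, measured 10.08, 9.30 and 9.23 in untreated animals and 9.08, 8.71 and 9.36 at the low dose (-0.48 ± 0.29), with overlap, and was at 0.049 with the actin gap as a covariate. COL3A1, a fibrillar collagen, was at 0.13 ± 0.34 and ACTA2, the actin of smooth muscle and myofibroblasts, at 0.29 ± 0.51. The cytokine TGFB1 measured 6.03, 5.99 and 5.88 against 6.40, 6.23 and 6.22 (0.32 ± 0.10) without overlap, with 0.10 on a dimmer set. The TGF-beta and fibroblast list it belongs to held 12 of 26 higher, with a median of -0.01. In it 4 were higher and 1 lower at an unadjusted limma p under 0.05, where 1.97 and 1.91 percent of all named genes were. Without overlap 3 were higher and 1 lower, where 4.39 and 4.14 percent of all named genes were. Matrix proteases and inhibitors were higher in 19 of 30 (median 0.10), and fibroblast markers in 6 of 11 (median 0.03).

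Among vessel genes, thrombomodulin (THBD), an anticoagulant receptor of endothelium, measured 6.36, 7.23 and 6.48 in untreated animals and 8.29, 7.16 and 7.66 at the low dose (1.01 ± 0.31), with low-dose animal 2 below untreated animal 2. Clusterin (CLU), a secreted chaperone that inhibits complement, measured 10.70, 8.53 and 8.59 against 11.45, 10.52 and 11.37, a difference of 1.84 ± 0.54, or 3.57-fold, with untreated animal 1 above the lowest low-dose animal. Tissue factor (F3), which starts coagulation, measured 8.39, 7.87 and 8.34 against 6.57, 6.95 and 7.66 (-1.14 ± 0.39) without overlap, and was 8.46 and 9.90 in the animals at the higher dose. Coagulation factor F5 was at 0.82 ± 0.25, from a level close to background. Of 36 complement and coagulation genes 23 were higher (median 0.08), with 1 higher and 3 lower without overlap, where 4.39 and 4.14 percent of all named genes were.

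VEGFA, the main angiogenic factor, measured 10.69, 10.41 and 10.56 in untreated animals and 10.06, 10.35 and 10.15 at the low dose (-0.36 ± 0.12) on its brightest probe set, and differed by 0.02 on a second set of similar brightness. The endothelial cadherin CDH5 measured 9.60, 9.35 and 9.40 against 8.95, 9.24 and 8.74 (-0.48 ± 0.20). Endothelial markers were higher in 8 of 19 (median -0.02), with 0 higher and 3 lower without overlap. Angiogenic genes were higher in 12 of 26 (median -0.01), with 1 higher and 3 lower without overlap. Over all named genes 4.39 percent were higher and 4.14 percent lower without overlap. Smooth muscle and pericyte markers were higher in 11 of 14 (median 0.09), with untreated animal 3 the lowest of the 6 by its centred mean of -0.40. Within them smoothelin (SMTN) measured 10.02, 10.04 and 10.18 against 10.43, 10.30 and 10.33 (0.28 ± 0.10), and calponin (CNN1) 6.00, 6.89 and 4.97 against 8.41, 6.76 and 7.08, with overlap. Genes of adrenergic and vascular tone, to which PKIB belongs, were lower in 23 of 35 (median -0.05).

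Markers of further cell types had medians of 0.06 for skeletal muscle (8 of 11 higher), 0.12 for atrial muscle and conduction (5 of 7), -0.05 for adipocytes (6 of 14), 0.02 for Schwann cells and nerve (9 of 13) and 0.00 for neutrophils and mast cells (5 of 10). The atrial list shares SLN and NPPA with the genes above, and these went in opposite directions. Cell death genes were higher in 16 of 25 (median 0.05), with DAP, a mediator of interferon-induced death, at 7.40, 7.48 and 7.37 in untreated animals and 7.91, 8.16 and 7.63 at the low dose (0.48 ± 0.14). Antioxidant and hypoxia genes were higher in 20 of 40 (median 0.00) and glucocorticoid-responsive genes in 13 of 23 (median 0.01). WNT, Hippo and Notch targets were higher in 7 of 11 (median 0.13).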

How the data were processed

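Left ventricular RNA of each pig was measured on Affymetrix porcine arrays. The authors deposited log2 expression values for each probe set, and the submitters' processing notes name RMA and Partek 6.6. How these were set is not given in the sources used here. Since RMA makes the distributions of arrays alike, a shift common to most genes would be lost. Arrays have no read depth, and their number limits the precision.

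With 124 control probe sets removed, group means were fitted to the 8 arrays in limma 3.58.1 (R 4.3.3; 5 residual and 3.50 prior degrees of freedom), and p-values were adjusted by Benjamini-Hochberg over 23999 probe sets. The script was tested on simulated data. Each array's label names another pig, so p-values measure the spread between animals. The platform annotation gave 1 symbol for 10069 probe sets, several for 198 and none for 13732. Lists used each gene's brightest probe set, and 1247 of 1934 listed names were measured. A level under 3.77, the lower quartile of all values, was taken as background.

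Alternatives were other variance priors, array weights, a filter on dim probe sets, 2 rescalings, the actin gap and tag numbers as covariates, other thresholds and each animal left out.

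The comparison, lists and rules were chosen with earlier results of these data known. Named genes were up to 15 in each direction with the smallest p at 1.5-fold or more, without overlap and above background, up to 3 of each list with the smallest p, and 12 genes of interest, 7 of them measured. Other genes, among them TOP2A, NUSAP1, UBE2C, CDK2, TYMS, F3, FOXM1, RRM1, WT1 and TRIM55, lie outside that rule and were chosen after their values were seen.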

Additional observations from a re-analysis of the deposited data

How the results depend on the processing

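No paired analysis was possible because the labels carry no replicate numbers, and those used here pair nothing across groups. The tag numbers set only 1 untreated beside 1 low-dose animal, and a term for untreated replicate 2 and low-dose replicate 1, neighbours by tag number, left 0 passing and gave 905 higher and 598 lower at an unadjusted p under 0.05, against 664 and 417. Of the alternatives run, 1 gave a passing probe set: without those animals 1 passed, and 356 were higher and 186 lower at 1.5-fold without overlap, where fewer animals make separation easier. With only probe sets above the median level, which tests fewer, 304 were higher and 192 lower at an unadjusted p under 0.05, and 52 higher at 1.5-fold without overlap. Adding the actin gap as a covariate, 100 were lower at 1.5-fold without overlap, against 58. There the fold came from the covariate fit and the overlap from the unadjusted values. Why more reached that fold was not tested. Without that covariate, asking for 2-fold in place of 1.5-fold left 18 higher and 13 lower. Leaving out each replicate in turn gave 470 to 1125 higher and 303 to 649 lower at an unadjusted p under 0.05, and 105 to 377 higher and 58 to 204 lower at 1.5-fold without overlap. The p counts were lowest without untreated replicates 1 and 3 and highest without low-dose replicates 2 and 3, and the counts without overlap, unaffected by the high-dose animals, were highest without low-dose replicate 2. Without untreated replicate 2 there were 375 higher and 201 lower without overlap. In 2027 of 2064 comparisons of a named gene's value under an alternative the direction was kept, and 37 had the other sign, the cause of which was not tested.

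The log2 change with the actin gap as a covariate was 0.25 for HBB, -0.44 for AREG, -0.071 for MYH7, 0.29 for WT1, 0.17 for CDK2, -0.37 for RRM1 and 0.049 for POSTN. Without untreated replicate 2 and low-dose replicate 1 it was -0.13 for the brightest ACSS3 probe set, 0.022 for WT1 and -0.053 for RRM1. The brightest RANBP3 probe set was at -0.022 after centring and -0.017 after renewed quantile normalization. Leaving out 1 replicate, the range was -0.15 to 0.04 for FOXM1, -0.16 to 0.033 for MCM3, -0.043 to 0.11 for RRM1, -0.16 to 0.43 for the brightest ACSS3 set, -0.073 to 0.079 for the brightest RANBP3 set and -0.032 to 0.085 for BUB3. It was -0.19 to 0.44 for COL3A1, -0.015 to 0.24 for the brightest MARCH6 set, -0.72 to 0.16 for CDH1, -0.31 to 0.69 for ACTA2, -0.24 to 0.027 for HBB and -0.23 to 1.40 for AREG. It was -0.053 to 0.004 for AURKB, -0.82 to 0.41 for NPPB, -0.21 to 0.092 for MCM5 and -0.002 to 0.12 for ATP2A2. Of 935 list medians under alternatives 63 moved by more than the spread between animals. A difference at the level of background has no exact size, and the smallest exact p for 3 animals against 3 is 0.1.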
